A study of Mus musculus and Homo sapiens with 67 samples.

Results

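The genes described here are 46 genes of the normal pancreas, 39 that mark acinar cells and 7 that mark islets, out of 55335 genes in the deposited table of orthotopic tumours. They were looked up by symbol, each was present once, and acinar and islet genes were read apart. KPC cells are mouse pancreatic cancer cells, and the tumours were grown from them in the pancreas of mice. A library of such a tumour can hold RNA of host pancreas beside that of cancer cells, and the labels do not say how much surrounding tissue was taken. The 16 tumours fell into 4 arms of 4: the combination of tazemetostat and RMC-6236, RMC-6236 alone, tazemetostat alone, and vehicle control. Tazemetostat inhibits EZH2, the histone methyltransferase of polycomb repressive complex 2, and RMC-6236 inhibits the active form of RAS proteins. Cultured KPC cells in the same 4 arms, with solvent as control and 3 libraries each, served to read the level of these genes in the cancer cells themselves. The labels give no dose, treatment time, age, strain or sex, and the deposited columns of tumours name 1 line, KPC1199. They do not say whether the KPC cell libraries came from separate cultures, so p-values in cells measure only the spread between these libraries.

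Acinar cells make the digestive enzymes of the gut, most of them as inactive precursors packed in zymogen granules. PTF1A and RBPJL, 2 subunits of the PTF1 complex, drive these genes, and BHLHA15 (MIST1) organises the secretory machinery. Islets are clusters of endocrine cells, among them beta cells with insulin and islet amyloid polypeptide, alpha cells with glucagon, delta cells with somatostatin and PP cells with pancreatic polypeptide.

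The promoters of acinar genes are shown for letters that match both parts of the PTF1 element as it is known from textbooks, an E box (here CACCTG) and a second box (here TGGGAA). Sequences came from RefSeq promoter windows of build GRCm38.p6, of which the 250 bases before the start were used, written in the direction of the gene. Of the members, 33 acinar and 6 islet genes had an entry. Both strands were searched, and every CACCTG also counts as CANNTG. The distance between both boxes and their order were not part of the search. The letters CACCTG stood in 17 of 33 acinar genes (51.5%) and 2 of 6 islet genes, against 19.4% of all 27025 genes with a window. TGGGAA stood in 18 of 33 acinar genes (54.5%) and 2 of 6 islet genes, against 24.1% of all genes. Both stood together in 8 acinar genes (24.2%) and 0 islet genes, against 4.54% of all genes. The looser CANNTG was common, in 27 of 33 acinar genes (81.8%), 5 of 6 islet genes and 69.3% of all genes. Of those 8 acinar genes, 4 that stand for a lipase, trypsinogen, elastase and PTF1 subunit follow, with CACCTG and TGGGAA on either strand in capitals.
Cel, chr2:28563404-28563653, minus strand: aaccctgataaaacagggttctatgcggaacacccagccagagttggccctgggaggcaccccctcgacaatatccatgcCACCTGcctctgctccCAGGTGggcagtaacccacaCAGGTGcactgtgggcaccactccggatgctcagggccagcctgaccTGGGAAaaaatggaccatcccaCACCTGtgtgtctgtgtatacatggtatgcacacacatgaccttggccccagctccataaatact
Prss2, chr6:41521526-41521775, plus strand: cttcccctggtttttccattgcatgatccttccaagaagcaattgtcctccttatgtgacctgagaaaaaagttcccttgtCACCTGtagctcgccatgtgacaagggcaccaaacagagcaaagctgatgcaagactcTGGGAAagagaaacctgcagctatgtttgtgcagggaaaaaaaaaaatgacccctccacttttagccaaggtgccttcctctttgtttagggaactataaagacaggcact
Cela2a, chr4:141826006-141826255, minus strand: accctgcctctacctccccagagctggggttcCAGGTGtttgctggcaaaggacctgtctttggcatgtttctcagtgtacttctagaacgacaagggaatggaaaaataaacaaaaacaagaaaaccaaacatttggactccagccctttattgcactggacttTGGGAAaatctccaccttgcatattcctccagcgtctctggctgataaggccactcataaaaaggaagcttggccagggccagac
Rbpjl, chr2:164402944-164403193, plus strand: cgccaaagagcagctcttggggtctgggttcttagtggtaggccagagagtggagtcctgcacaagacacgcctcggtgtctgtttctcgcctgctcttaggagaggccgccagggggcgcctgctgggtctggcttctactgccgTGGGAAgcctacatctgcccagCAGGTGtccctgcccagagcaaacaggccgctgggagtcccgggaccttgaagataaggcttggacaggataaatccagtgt
Cel held the E box letters 4 times and the other 3 promoters 1 time each. Counted from the start, CACCTG and TGGGAA began at -169 and -111 in Prss2, -218 and -85 in Cela2a, and -82 and -104 in Rbpjl. Letters at such distances need not form 1 PTF1 element. A match describes letters and says nothing of whether the factor was bound.

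Deposited FPKM hold no totals of reads, and the sequencing depth behind each value is therefore not known. Tumour libraries held 12386 to 13414 genes at 1 FPKM or more, and mitochondrial genes took 9.67% to 12.4% of all FPKM. The combination tumours had the most genes at 1 FPKM, 13081 to 13414, against 12433 to 12708 in controls. Summed FPKM of 10 fibroblast markers lay between 3285 and 3831 in combination tumours, 2965 and 3944 in RMC-6236, 594.8 and 1323 in tazemetostat and 859.2 and 1176 in control tumours, and macrophage markers followed the same split. Of 11 tested markers of ductal epithelium, 8 were lower in combination tumours than in controls (25.7% of all tested genes were) and 1, Spp1, was higher. Combination tumour 3 stood apart in fat markers, whose sum was 205.5 FPKM there, against 5.574 to 28.68 in the other 15 tumours. Combination tumour 1 and RMC-6236 tumour 2 led in B and plasma cell markers, at 280.0 and 661.1 FPKM. In bulk tumours fewer cells of a type and less RNA per cell cannot be told apart, and the part of these other cells in the results below was not tested.

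Acinar genes were far higher in combination tumours than in controls. The summed FPKM of all 39 was 1058, 1877, 156.3 and 5170 in combination tumours 1 to 4, against 21.6, 52.6, 86.7 and 51.3 in controls. RMC-6236 tumours had 39.4, 7.86, 176.5 and 85.4, and tazemetostat tumours 124.4, 10.2, 524.1 and 28.3. All 4 combination tumours lay above every control, but combination tumour 3 lay below RMC-6236 tumour 3 and tazemetostat tumour 3. Within each arm the tumours spread widely, and combination tumour 3 was the lowest and combination tumour 4 the highest of their arm. As a share of all FPKM, acinar genes made up 0.0546% to 1.84% in combination tumours and 0.00785% to 0.0307% in controls.

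**Figure D1:**
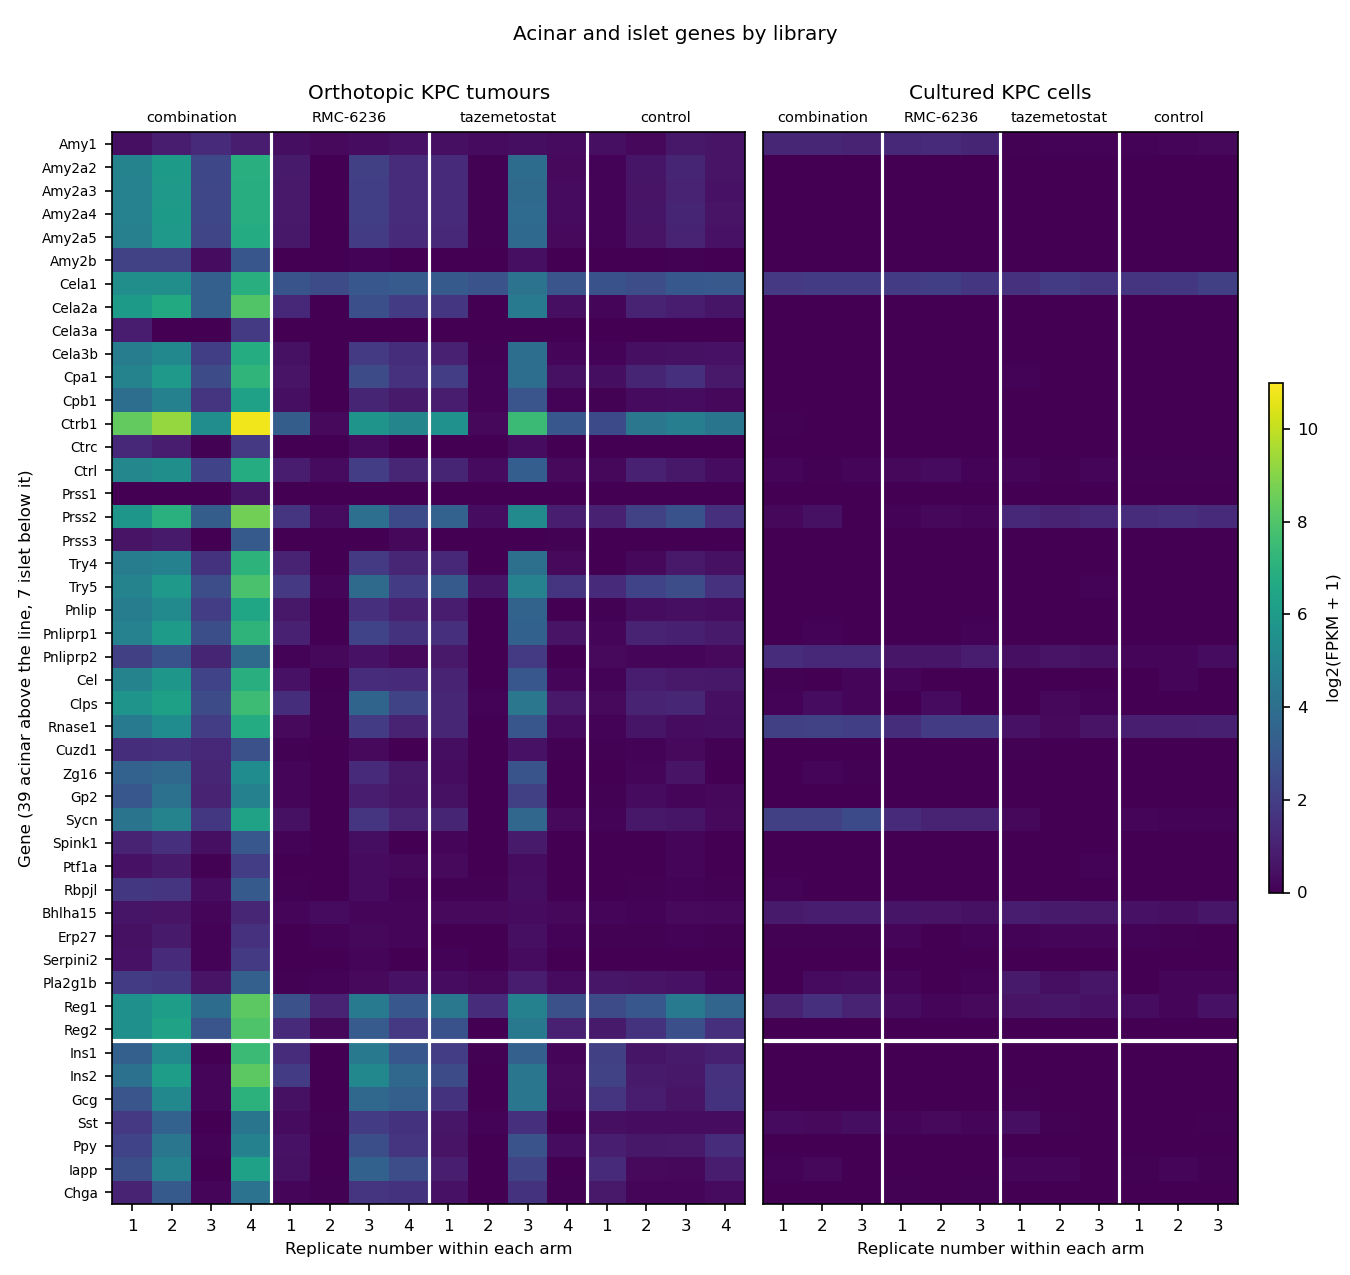
Log2(FPKM + 1) of the 46 genes (rows) in each of 16 orthotopic tumours and 12 cultured KPC cell libraries (columns, grouped by arm). Most acinar rows are brightest in combination replicate 4, tazemetostat replicate 3 is brighter than combination replicate 3 for most of them, islet rows are dark in combination replicate 3, and nearly all rows are dark in the cells.

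Genes were tested with limma on log2(FPKM + 1) over the 4 arms, where at least 4 tumours reached 1 FPKM, with p-values adjusted (Benjamini-Hochberg) over all 13545 genes and a threshold of 0.05. All differences below are on this scale, which understates changes of low genes. Of 39 acinar genes, 26 passed the filter and all 26 were higher with the combination than in controls, beside 26.7% of all tested genes called higher. Since 6 of the 26 (Cpb1, Pnlip, Pnliprp2, Cuzd1, Zg16 and Gp2) passed only through the combination tumours, that count is no measure of the whole list. Each of the 6 was tested only because it was high in that arm. With no filter on low values, 33 of 39 were called higher, against 16% of 31585 genes. The 4 combination tumours lay above all 4 controls for 31 of 39 acinar genes, against 15.7% of all genes above 0 in any tumour. Without a filter the median log2 difference was 3.40 over the 39 acinar genes and 0.0038 over all genes. The acinar genes also rose and fell together from tumour to tumour (below), so these counts do not stand for that many separate results.

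**Figure D2:**
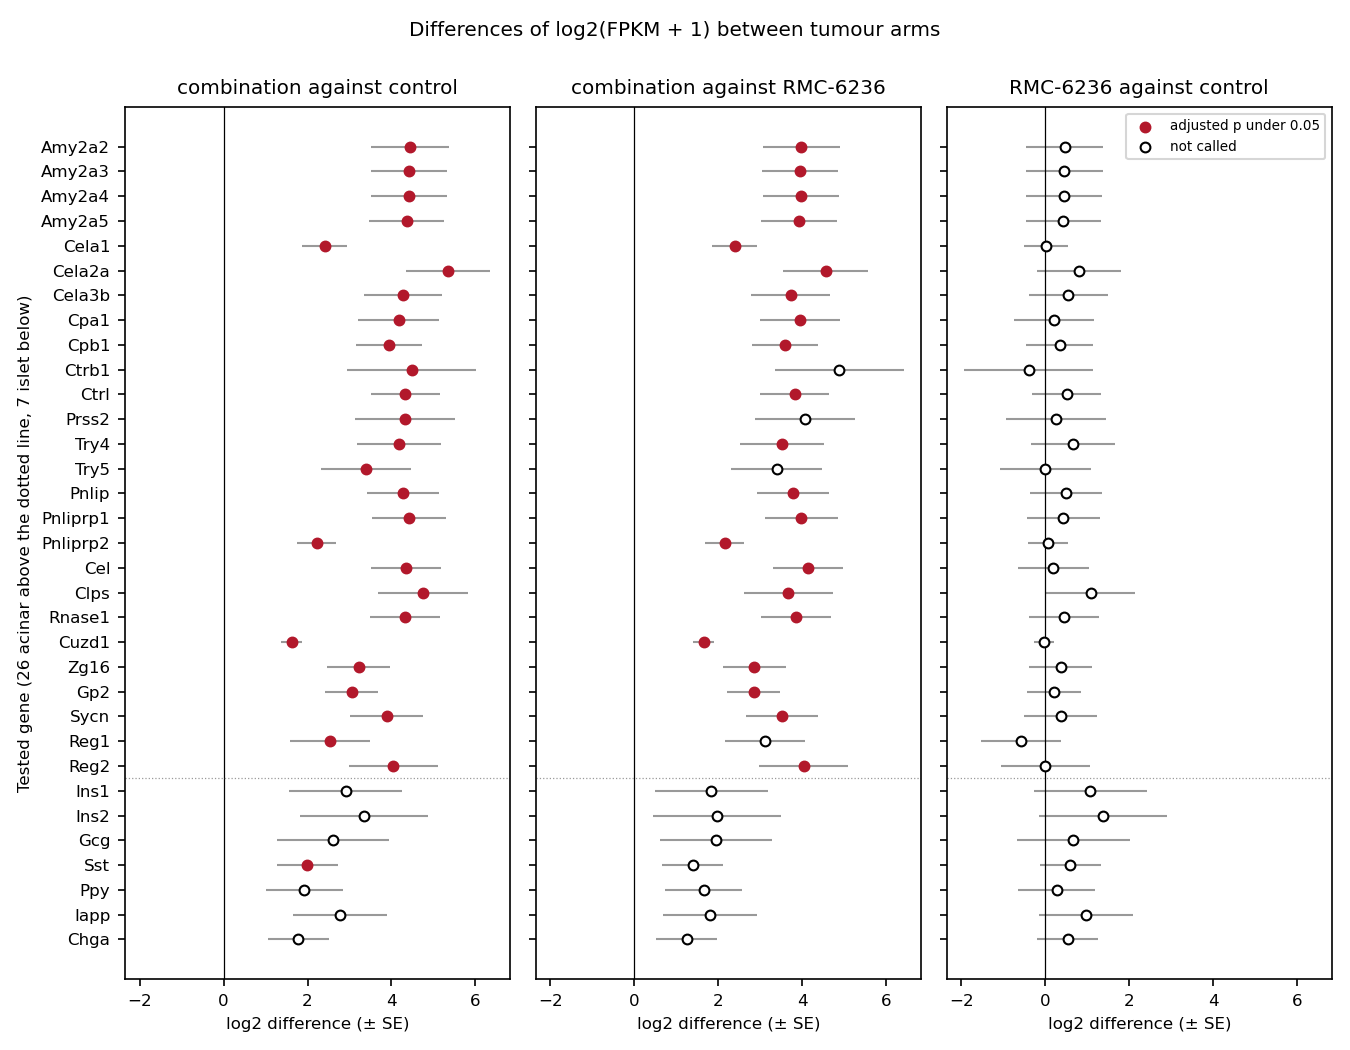
Log2 differences with standard errors of the 33 tested members for 3 comparisons, filled where the adjusted p passed 0.05. In the left panel all 26 acinar genes and Sst are filled, in the middle panel 22 acinar genes, and in the right panel none.

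Amylases split starch, and mouse pancreas carries several nearly identical Amy2a copies. Amy2a2 stood at 29.0, 63.5, 4.23 and 117.6 FPKM in combination tumours, 0.715, 0.0050, 3.21 and 1.65 in RMC-6236, 1.58, 0.035, 13.7 and 0.231 in tazemetostat, and 0.081, 0.528, 1.20 and 0.477 in control tumours. Combination and control tumours did not overlap, and the log2 difference was 4.44 ± 0.92 (SE; adjusted p = 0.00111). Amy2a3, Amy2a4 and Amy2a5 gave nearly the same values (log2 differences 4.36 to 4.42). Every 50-base window of Amy2a2, Amy2a3 and Amy2a4 transcripts, and 57.2% of those of Amy2a5, also occurs in another gene, so the copies are best read as 1 measurement. Their sum was 16.4 to 454.9 FPKM in combination tumours and 0.313 to 4.64 in controls. Amy2b reached 0.284 to 6.80 FPKM in combination tumours and at most 0.035 in controls, too low for the filter. Amy1, the salivary type amylase, did not follow: it had 0.381 to 1.51 FPKM in combination tumours, overlapping controls at 0.171 to 0.654.

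Serine protease precursors and carboxypeptidases cut proteins in the gut. Ctrb1, chymotrypsinogen B1, was the acinar gene with the highest FPKM in every combination tumour, at 331, 604, 41.1 and 1715 FPKM in combination tumours, 8.57, 0.218, 50.9 and 30.8 in RMC-6236, 47.0, 0.164, 178.3 and 7.04 in tazemetostat, and 4.52, 19.4, 25.2 and 18.7 in controls. It was higher with the combination than in controls by 4.48 ± 1.54 (adjusted p = 0.0248), but did not pass without combination tumour 2, combination tumour 4 or control tumour 1. Ctrb1 alone held 26.3% to 33.2% of the summed acinar level in combination tumours and 20.9% to 36.9% in controls, so its share did not separate these arms.
Cela2a, a pancreatic elastase, had 62.6, 102.6, 9.42 and 258.9 FPKM in combination tumours, 1.32, 0.021, 5.42 and 2.83 in RMC-6236, 2.32, 0.029, 22.0 and 0.383 in tazemetostat, and 0.124, 1.06, 0.801 and 0.532 in controls. Its difference of 5.35 ± 1.003 (adjusted p = 0.000526) was the largest of the 26, although 25.6% of its transcript windows also occur in Ctrc. Prss2, a trypsinogen, had 56.0, 125.6, 8.57 and 403.2 FPKM in combination tumours, 2.16, 0.247, 15.3 and 4.52 in RMC-6236, 9.89, 0.302, 36.2 and 0.915 in tazemetostat, and 1.01, 3.49, 5.77 and 1.91 in controls (difference from control 4.32 ± 1.20, adjusted p = 0.00776). Both genes were at their lowest in tumour 3 of the combination and near 0 in tumour 2 of either single drug.

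The remaining tested proteases also passed. Cpa1 and Cpb1, carboxypeptidases A1 and B1, averaged 59.3 ± 61.3 and 30.7 ± 33.2 FPKM in combination tumours, against 1.01 ± 0.65 and 0.204 ± 0.113 in controls (SD, n = 4). Their log2 differences from control were 4.17 and 3.94. Ctrl and Cela3b differed from control by 4.33 and 4.28, and the trypsinogens Try4 and Try5 by 4.18 and 3.40. Try5 did not pass without combination tumour 4. Try4 and Try5 share 65.6% and 53.9% of their windows with other genes, and Cela3b 33.2% with Cela3a. Ctrc, Cela3a, Prss1 and Prss3 stayed below the filter: Prss3 was listed at 0.504, 0.738, 0 and 7.67 FPKM in combination tumours and at 0 in all controls.

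Cela1 was unlike the other elastases because every tumour had a level of it. It stood at 41.8, 42.2, 9.31 and 117.8 FPKM in combination tumours, 6.30, 4.78, 6.82 and 8.04 in RMC-6236, 7.56, 6.14, 17.1 and 6.52 in tazemetostat, and 5.86, 5.0, 7.19 and 7.39 in controls. The difference from control was 2.41 ± 0.53 (adjusted p = 0.00179). In the 2 tumours with the least acinar signal, RMC-6236 tumour 2 and tazemetostat tumour 2, Cela1 made up 60.8% and 60.4% of the summed acinar level, against 2.25% in combination tumour 2.

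Fat-digesting enzymes moved with the proteases. Cel, the bile salt-activated lipase, had 29.0, 55.6, 3.62 and 119.3 FPKM in combination tumours, 0.468, 0, 1.61 and 1.497 in RMC-6236, 1.14, 0.020, 6.92 and 0.129 in tazemetostat, and 0.091, 0.854, 0.673 and 0.631 in controls. The lowest combination tumour was still above every RMC-6236 and control tumour, and the difference from control was 4.35 ± 0.84 (adjusted p = 0.000641). Pnlip, pancreatic lipase, and Clps, its cofactor colipase, differed from control by 4.28 and 4.75. Pnliprp1 and Pnliprp2, relatives of pancreatic lipase, differed by 4.42 and 2.22. Pla2g1b, a secreted phospholipase below the filter, had 0.491 to 9.33 FPKM in combination tumours, overlapping controls at 0.132 to 0.601.

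Other secreted and granule proteins rose as well. Rnase1, pancreatic ribonuclease, averaged 43.7 ± 46.1 FPKM in combination tumours and 0.299 ± 0.182 in controls (SD, n = 4; difference 4.31 ± 0.84, adjusted p = 0.00068). Sycn (syncollin), Zg16 and Gp2, proteins of zymogen granules, differed from control by 3.89, 3.22 and 3.05. Cuzd1, a zymogen granule membrane protein, had the smallest standard error: its levels were 1.75, 1.91, 1.39 and 5.70 FPKM in combination tumours, 0.046, 0.019, 0.219 and 0.021 in RMC-6236, 0.329, 0, 0.471 and 0.045 in tazemetostat, and 0.056, 0.079, 0.213 and 0.041 in controls. Its 4 combination tumours lay above all 12 others, and its difference from control was 1.62 ± 0.24 (adjusted p = 6.41e-05). Cuzd1 had 0 tumours at 1 FPKM outside the combination, so it was tested only because it was high there. The scale also understates the spread of such low values.
Reg1 and Reg2, regenerating proteins that acinar cells secrete, also passed. Reg1 had 44.9, 69.7, 14.0 and 295.8 FPKM in combination tumours, 5.54, 1.13, 22.8 and 6.82 in RMC-6236, 20.2, 1.61, 27.2 and 5.68 in tazemetostat, and 4.77, 6.90, 22.1 and 11.2 in controls. The arms overlapped, and the difference of 2.53 ± 0.96 (adjusted p = 0.0387) was lost without any one of combination tumours 1, 2 or 4 or control tumours 1, 2 or 4. Reg2 differed by 4.05 ± 1.06 (adjusted p = 0.00559).

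**Figure D3:**
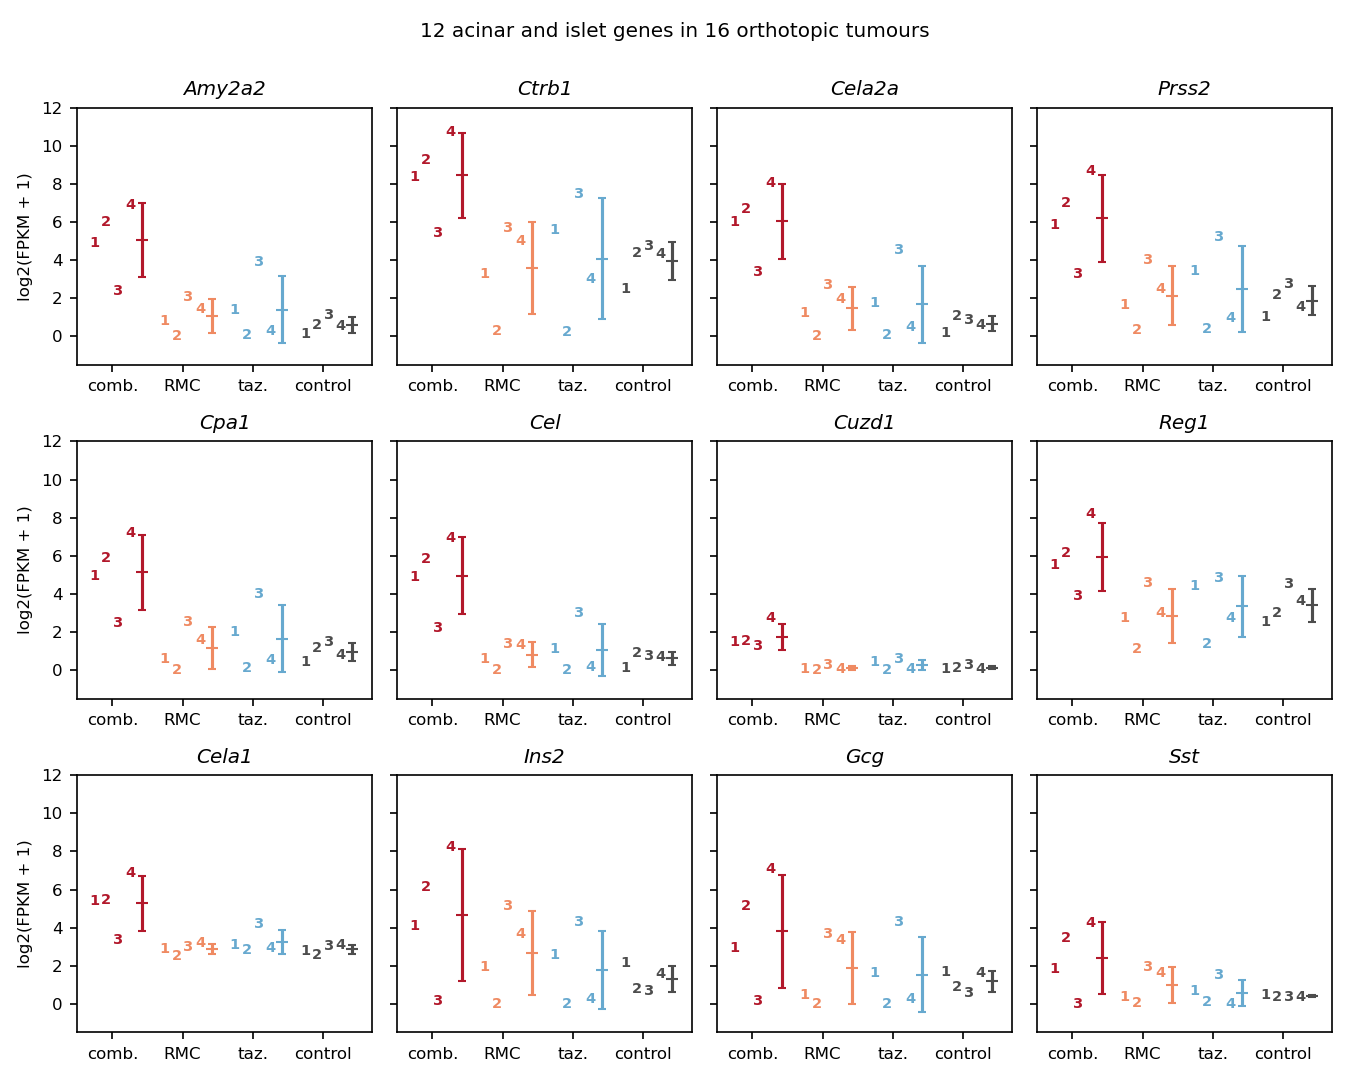
Log2(FPKM + 1) of 9 acinar and 3 islet genes in the 16 tumours. Each digit is 1 tumour, placed at its value and named by its replicate number, and the bar beside it is the arm's mean ± SD. Combination tumours lie above controls for the acinar genes other than Reg1, whose arms overlap, while combination tumour 3 is at or near 0 for Ins2, Gcg and Sst.

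The acinar transcription factors stayed below the filter in all arms. Ptf1a was listed at 0.442, 0.754, 0.047 and 3.03 FPKM in combination tumours, against 0, 0.022, 0.124 and 0 in controls, so the arms overlapped. Rbpjl had 2.47, 2.21, 0.291 and 7.79 FPKM in combination tumours, 0.061, 0, 0.256 and 0.086 in RMC-6236, 0.058, 0.036, 0.336 and 0 in tazemetostat, and 0.0071, 0.035, 0.063 and 0.047 in controls. The combination tumours were above all controls for Rbpjl, and combination tumour 3 was within the range of tazemetostat tumours. Bhlha15 had 0.130 to 1.28 FPKM in combination tumours and 0.093 to 0.210 in controls. Erp27, a chaperone of the endoplasmic reticulum, and Serpini2, a protease inhibitor, were also below the filter, but neither overlapped between these arms: 0.090 to 1.96 against 0.031 to 0.067 FPKM for Erp27, and 0.086 to 2.66 FPKM against 0 in every control for Serpini2. Spink1, the trypsin inhibitor of acinar cells, had 0.380 to 7.02 FPKM in combination tumours and at most 0.098 in controls.

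Neither drug alone passed for any member. For RMC-6236 against control 0 of the 33 tested members were called, beside 39.4% of all tested genes in either direction, and 0 had an unadjusted p under 0.05. Log2 differences ran from -0.58 (Reg1) to 1.08 (Clps) over the 26 acinar genes and from 0.28 to 1.38 over the 7 islet genes. No member had all RMC-6236 tumours above all controls, which 9.29% of genes did. For tazemetostat against control limma called 0 of the 33 and 0.0% of all tested genes, while 1023 genes (7.55%) and 0 members had an unadjusted p under 0.05. No member had all tazemetostat tumours above all controls (1.73% of genes did). Tumours of these 2 arms differed strongly among themselves: tumour 2 of each had 18 and 17 of the 39 acinar genes at 0, and tazemetostat tumour 3 had the highest acinar sum outside the combination. The standard errors of the acinar differences were accordingly wide, 0.24 (Cuzd1) to 1.54 (Ctrb1) log2 units.

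Against RMC-6236 alone, the combination was higher for 22 of 39 acinar genes, beside 5.16% of all tested genes called higher, and without a filter for 23 of 39, against 4.28%. For 21 of 39 the arms did not overlap, against 6.82% of all genes. Cel (4.15 ± 0.84, adjusted p = 0.00707), Cela2a (4.56 ± 1.003, adjusted p = 0.0121) and Cuzd1 (1.65 ± 0.24, adjusted p = 0.000743) passed, while Ctrb1 (4.88 ± 1.54), Prss2 (4.07 ± 1.20), Try5 (3.39 ± 1.08) and Reg1 (3.11 ± 0.96) did not (adjusted p = 0.0688, 0.0518, 0.0711 and 0.0626). The 22 include the 6 genes, Cuzd1 among them, that passed the filter only through the combination tumours. Each was tested only because it was high there, so the count of 22 is no measure of the whole list. Libraries rescaled by the median ratio left 51.4% of all calls higher, against 63.5% as deposited. The acinar count fell to 2 with only these 2 arms in the fit, to 14 without combination tumour 2 and to 10 without combination tumour 4, where 4.02%, 3.94% and 3.04% of all genes were called higher.
Against tazemetostat alone 26 of 39 were higher (24.7% of all tested genes), and without a filter 30 of 39 (15.2%). The 26 hold the same 6 genes that passed only through the combination tumours, so that count is no measure of the list either. Only 2 of 39, Cuzd1 and Amy1, had all combination tumours above all tazemetostat tumours, against 15.0% of all genes. Cela2a, for example, had 9.42 FPKM in combination tumour 3 and 22.0 in tazemetostat tumour 3. These comparisons share their tumours, so their counts are not independent.

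Whether the combination exceeded the sum of both drugs was tested as an interaction. On the log2 scale, 1 acinar gene, Cuzd1, passed (1.52 ± 0.34, adjusted p = 0.0356), beside 1.49% of all tested genes with a positive interaction. Cuzd1 had 0 tumours at 1 FPKM outside the combination, so it was tested only because it was high there, and with no filter 0 acinar genes were called. The other 25 had estimates from 1.72 to 4.76 with adjusted p from 0.148 to 0.464, and Cel had the lowest of these p-values (3.69 ± 1.18). Cuzd1 was called in 1 of the 12 fits that left out an RMC-6236, tazemetostat or control tumour, that without tazemetostat tumour 3, and it fell below the filter when any combination tumour was left out. Without combination tumour 3, 3 other acinar genes passed, Cel, Cela1 and Gp2. Gp2 had 1 tumour at 1 FPKM outside the combination, so it too was tested only because it was high there. The 7 islet genes had interactions of 1.03 to 1.69 with adjusted p of 0.649 to 0.849.

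The summed FPKM of the 7 islet genes was 44.5, 205.7, 0.375 and 752.9 in combination tumours, 6.09, 0.105, 86.1 and 38.96 in RMC-6236, 12.3, 0.111, 60.4 and 0.836 in tazemetostat, and 12.4, 3.37, 3.10 and 7.98 in controls. Combination tumours 1, 2 and 4 lay above all controls and combination tumour 3 below all of them. Of the 7 genes 1, Sst (somatostatin), was called higher with the combination than in controls, beside 26.7% of all tested genes. Sst passed the filter only through combination tumours, with 3 tumours at 1 FPKM outside that arm, and with no filter 0 of 7 were called.
Sst had 2.51, 9.94, 0 and 18.2 FPKM in combination tumours, 0.265, 0.049, 2.81 and 2.09 in RMC-6236, 0.593, 0.065, 1.82 and 0 in tazemetostat, and 0.376, 0.281, 0.295 and 0.297 in controls (difference from control 1.99 ± 0.73, adjusted p = 0.0331). This call was lost without combination tumour 2 or 4 or any one control. Without combination tumour 3 all 7 islet genes passed, with 23.9% of all genes called higher. Like Sst, Chga had 3 tumours at 1 FPKM outside the combination. Both were tested only because they were high in that arm, so the count of 7 is no measure of the islet list.
Ins2, insulin 2, had 16.04, 69.8, 0.108 and 300.5 FPKM in combination tumours, 2.84, 0, 33.7 and 11.7 in RMC-6236, 4.83, 0, 18.7 and 0.200 in tazemetostat, and 3.50, 0.742, 0.617 and 1.96 in controls. Its difference from control, 3.35 ± 1.52, did not pass (adjusted p = 0.0793). Gcg, glucagon, had 6.51, 34.3, 0.102 and 131.6 FPKM in combination tumours, 0.394, 0, 11.7 and 9.03 in RMC-6236, 2.02, 0, 18.7 and 0.177 in tazemetostat, and 2.24, 0.841, 0.501 and 2.10 in controls (2.61 ± 1.34, adjusted p = 0.118). Ins1, Ppy, Iapp (islet amyloid polypeptide) and Chga (chromogranin A, a granule protein of endocrine cells) had differences of 1.78 to 2.91 with adjusted p of 0.0508 to 0.0933. No islet gene was without overlap between the combination and any other arm, and against RMC-6236 or tazemetostat 0 of 7 were called. Without combination tumour 3 all 7 passed against tazemetostat and 1 against RMC-6236, where 22.3% and 3.21% of all genes were called higher. The 7 again include Sst and Chga, which passed the filter only through the combination tumours. The 2 insulin genes held 52.0% to 64.1% of the islet sum in combination tumours 1, 2 and 4, 28.8% in combination tumour 3, and 36.8% to 54.4% in controls.

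**Figure D4:**
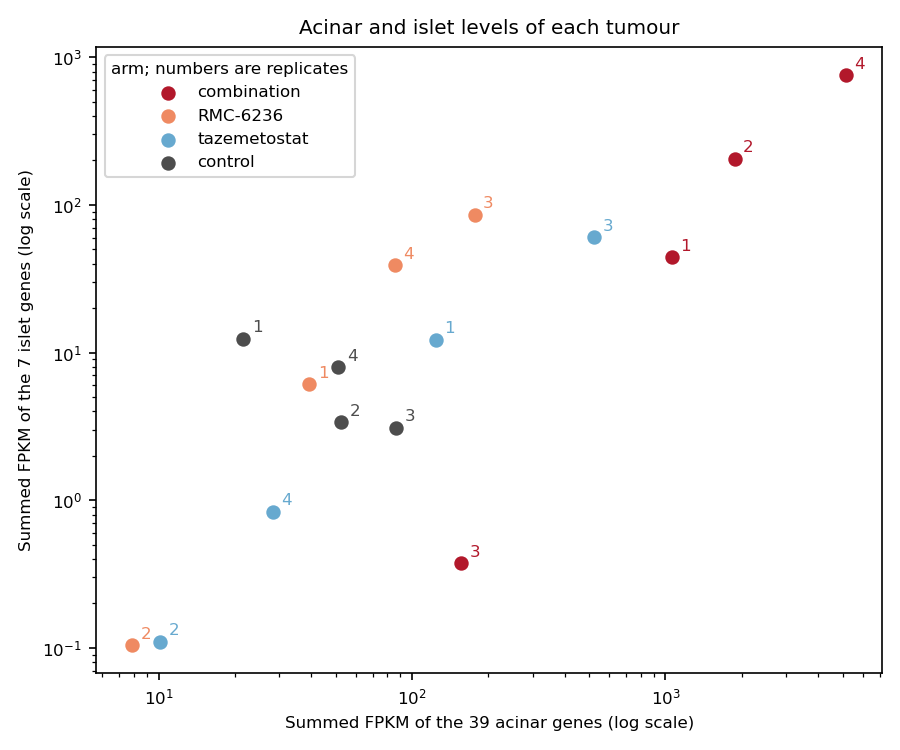
Summed FPKM of the 7 islet genes against summed FPKM of the 39 acinar genes, 1 point per tumour, both axes on a log scale, coloured by arm and numbered by replicate. Combination tumour 3 (156.3 acinar, 0.375 islet) lies far below the other combination tumours, and RMC-6236 tumours 3 and 4 have more islet signal for their acinar level than any combination tumour.

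Islet and acinar signal did not keep a fixed ratio. Per 100 FPKM of acinar genes, islet genes had 4.20, 11, 0.240 and 14.6 FPKM in combination tumours, 15.5, 1.33, 48.8 and 45.6 in RMC-6236, 9.86, 1.09, 11.5 and 2.96 in tazemetostat, and 57.6, 6.40, 3.58 and 15.6 in controls. The lowest ratio was that of combination tumour 3, the tumour with the fat markers: Adipoq, adiponectin, stood at 29.3 FPKM there, against at most 2.41 in the other 15, and Lep, leptin, at 3.09 against at most 0.0256. RMC-6236 tumours 3 and 4 and control tumour 1 had the highest ratios. The part of fat tissue in this was not tested.

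Among themselves the acinar genes rose and fell together from tumour to tumour. Pearson's r of log2(FPKM + 1) over the 16 tumours was 0.831 to 1.0 (median 0.979) over 325 pairs of the 26 tested acinar genes. As deviations from the arm means it was 0.653 to 1.0 (median 0.961), so the likeness was not that of the arms alone. The 7 islet genes gave 0.954 to 0.996 over 21 pairs, and 0.938 to 0.994 within arms. Between acinar and islet genes r was 0.709 to 0.916 (median 0.863) over 182 pairs. These genes share their libraries and each library's scaling, so r is a description. The step between combination tumours 3 and 4 showed the same: tumour 4 had 4.11 (Cuzd1) to 66.9 (Try4) times the FPKM of tumour 3, with a median of 30.7, and tumour 4 was the highest of 16 for 38 of 39 acinar and all 7 islet genes. Amy1, highest in combination tumour 3, was the exception.

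Outside all lists, the 10 tested genes most like the mean of the 26 acinar genes were 2210010C04Rik (r = 0.995), Amy2a1 (0.987), Tstd1 (0.928), Aoc1 (0.898), Epsti1 (0.896), Tfpi2 (0.892), A2m (0.890), Smco4 (0.875), Rps4l (0.873) and Pyy (0.870), each over 16 tumours. 2210010C04Rik had a median of 33.4 FPKM in combination tumours, 0.731 in RMC-6236, 0.571 in tazemetostat and 0.261 in controls, and was at 0 in every KPC cell library. Within arms its r was 0.990, and that of Tfpi2 was 0.665. Among the 10 most like the islet mean were Pyy, peptide YY, a hormone of islet and gut endocrine cells (0.985), 2210010C04Rik (0.878), Dcaf13 (0.876), Ube2n (0.875), Crabp1 (0.869), Amy2a1 (0.866), Afap1l1 (0.845), Tstd1 (0.843) and Ucn2 (0.837). Pyy had 0.056 to 39.2 FPKM in combination tumours and 0.626 to 1.73 in controls, and was lowest of its arm in combination tumour 3 like the islet genes.

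Other acinar genes beyond the 39 were mostly higher too. Of 17 on a further list, 8 were tested and 6 were higher with the combination than in controls (26.7% of all tested genes were). All combination tumours lay above all controls for 11 of 17 (15.7% of all genes) and below them for 1, Aqp8, a water channel, at 0.088 to 0.255 FPKM in combination tumours and 0.317 to 0.611 in controls. Klk1, a tissue kallikrein (3.69 ± 0.79, adjusted p = 0.00147), Pdia2, a pancreatic disulfide isomerase (2.32 ± 0.37, adjusted p = 0.000115), and Dpep1, a dipeptidase (1.82 ± 0.30, adjusted p = 0.000178), were among the 6. Klk1 and Pdia2 passed the filter only through the combination tumours, with fewer than 4 tumours at 1 FPKM outside that arm. The count of 6 is therefore no measure of this further list. Gata4 and Gatm were tested and not called, at 0.088 ± 0.178 and -0.12 ± 0.15.
Genes of regeneration and pancreatitis were divided. Of 9, 8 were tested, 4 were higher and 2 lower, beside 26.7% and 25.7% of all tested genes: Reg3a (3.36 ± 0.76, adjusted p = 0.00216), Reg3d (2.74 ± 0.56, adjusted p = 0.00102), Reg3g (1.25 ± 0.35, adjusted p = 0.00861) and Nupr1, a stress-induced nuclear protein (1.12 ± 0.12, adjusted p = 3.72e-06), were higher, and Clu, clusterin, and Dmbt1 differed by -1.02 and -1.21. Reg3a and Reg3d passed the filter only through the combination tumours, with fewer than 4 tumours at 1 FPKM outside that arm. The count of higher genes is therefore no measure of this list. Reg3b, pancreatitis-associated protein, did not pass (1.93 ± 0.87, adjusted p = 0.078).
Of 24 further islet genes 5 were tested, and 1 was higher and 1 lower, beside 26.7% and 25.7% of all tested genes. Pdx1, a pancreatic transcription factor, was lower (-0.34 ± 0.12, adjusted p = 0.025).
Of 10 markers of gut and liver epithelium, 3 were tested and 1, Vil1 (villin), was lower (-1.30 ± 0.36, adjusted p = 0.00707), beside 25.7% of all tested genes. Cultured KPC cells also held Vil1, at 28.9 to 43.8 FPKM. Alb, albumin of liver, stood at 0.033 to 0.359 FPKM in combination tumours and at 1.33 in RMC-6236 tumour 3, and was listed at 0 in all controls.

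In cultured KPC cells most members were at or near 0. Of 39 acinar genes 13 were listed at 0 in all 12 libraries and 32 stayed under 1 FPKM in all of them, and all 7 islet genes stayed under 1 FPKM, with both insulin genes and Ppy at 0 throughout. The acinar sum was 14.3 to 15.97 FPKM in combination cells, 9.35 to 10.5 in RMC-6236, 6.59 to 6.85 in tazemetostat and 5.96 to 7.53 in control cells. The tumour and cell tables were made separately, so levels are set side by side only. Ctrb1, at 41.1 FPKM or more in every combination tumour, reached at most 0.050 in cells. The test covered 7 genes, all acinar, with 3 libraries at 1 FPKM required and p-values adjusted over 12567 genes.

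**Figure D5:**
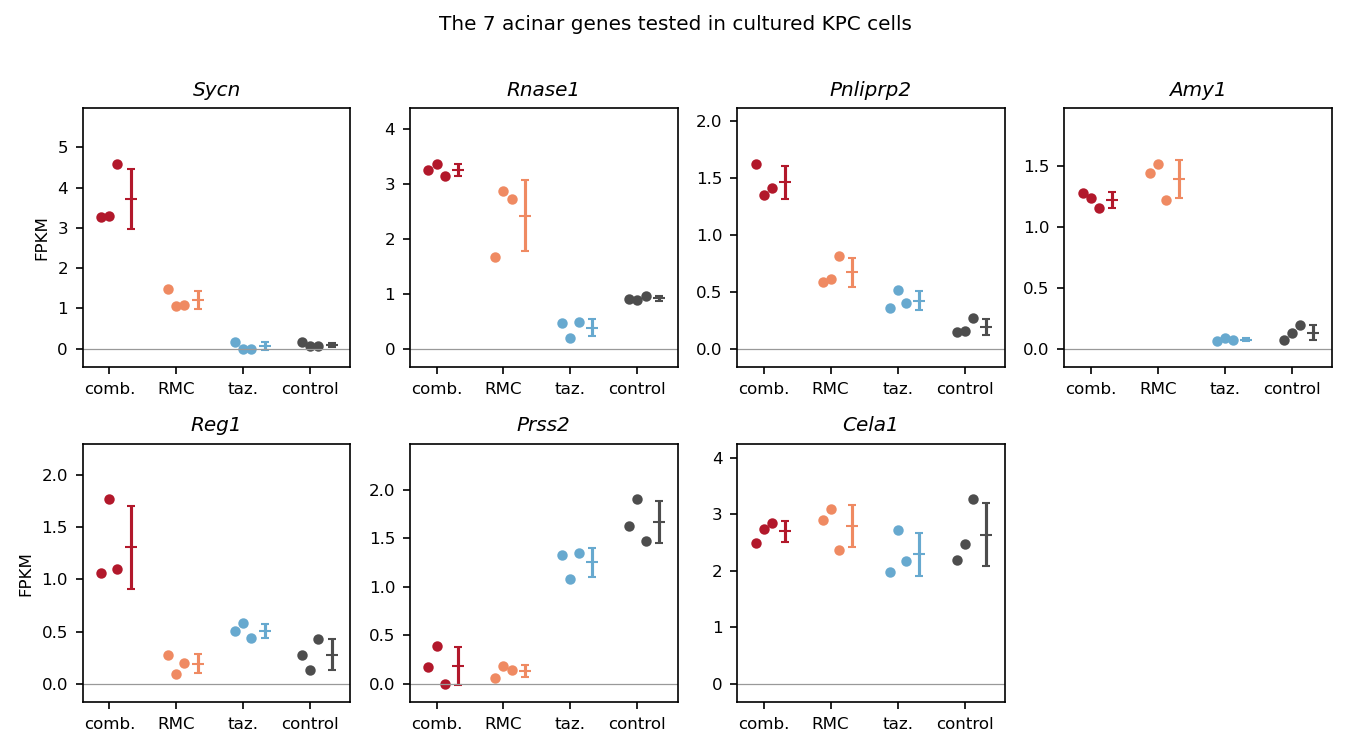
FPKM of the 7 acinar genes tested in cultured KPC cells, 1 point per library, with the mean ± SD of 3 libraries beside the points. Sycn, Pnliprp2 and Reg1 are highest in combination cells, Amy1 is high in both arms with RMC-6236, Prss2 is low in both, and Cela1 is alike in all 4.

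Some of the 7 responded in the cells. With the combination 6 were called against control, 5 higher and 1 lower, beside 76.4% of all genes in either direction. With RMC-6236 5 were called (73.7% of genes), with tazemetostat 2 (44.1%), and between the combination and RMC-6236 4 (48.8%), so these shares are near those of all genes. Of the 7, Pnliprp2 and Reg1 passed the filter only through the combination cells.
Sycn had 3.27, 3.30 and 4.59 FPKM in combination cells, 1.48, 1.05 and 1.10 in RMC-6236, 0.173, 0 and 0 in tazemetostat, and 0.159, 0.066 and 0.066 in control cells. No combination library overlapped another arm, and the difference was 2.09 ± 0.11 against control (adjusted p = 1.79e-09) and 1.09 ± 0.11 against RMC-6236 (adjusted p = 6.08e-06).
Rnase1 had 3.25, 3.36 and 3.14 FPKM in combination cells, 1.68, 2.87 and 2.72 in RMC-6236, 0.466, 0.199 and 0.483 in tazemetostat, and 0.902, 0.882 and 0.956 in control cells. It was higher with the combination (1.15 ± 0.12, adjusted p = 1.58e-06) and RMC-6236 (0.82 ± 0.12, adjusted p = 4.64e-05) and lower with tazemetostat (-0.48 ± 0.12, adjusted p = 0.00705).
Prss2 went the other way in cells than in tumours, at 0.177, 0.388 and 0 FPKM in combination cells, 0.065, 0.184 and 0.148 in RMC-6236, 1.33, 1.08 and 1.35 in tazemetostat, and 1.63, 1.91 and 1.47 in control cells (combination against control -1.18 ± 0.11, adjusted p = 4.8e-07).
Amy1 was higher with the combination (0.98 ± 0.07) and RMC-6236 (1.08 ± 0.07), Pnliprp2 with the combination (1.05 ± 0.08), RMC-6236 (0.49 ± 0.08) and tazemetostat (0.26 ± 0.08), and Reg1 with the combination alone of these 3 (0.84 ± 0.12). Pnliprp2 and Reg1 had 0 libraries at 1 FPKM outside the combination cells. They were therefore tested only because they were high there, which holds for the Reg1 interaction below too. The tazemetostat call of Pnliprp2 (adjusted p = 0.0207) was lost without tazemetostat library 2, control library 1 or control library 2. Cela1, at 1.99 to 3.27 FPKM in all cells, was not called, with a difference of 0.03 ± 0.11 between combination and control. Of the interactions in cells 3 passed, for Sycn (1.15 ± 0.16), Rnase1 (0.81 ± 0.17) and Reg1 (0.70 ± 0.17), beside 25.8% of all genes.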

How the data were processed

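RNA of 16 orthotopic KPC tumours and 12 KPC cell libraries was sequenced. The authors deposited FPKM per gene, in 1 table for tumours and 1 for cells; per the submitters' processing notes FastQC 0.11.2, STAR 2.5.3a and StringTie 1.3.1c were used. Those notes name hg38, while the gene IDs are of mouse, so the mouse build and annotation are not given in the sources used here, nor is the strand setting. FPKM keep no read totals, so depth and counting error are unknown. Subcutaneous tumours and the human cell lines of the series were not analysed here.
Values were taken as log2(FPKM + 1), with genes kept at 1 FPKM or more in at least 4 tumours or 3 cell libraries. limma 3.58.1 (R 4.3.3; trend and robust variance) fitted 1 mean per arm, with Benjamini-Hochberg adjustment over all genes and a threshold of 0.05. The interaction was (combination minus RMC-6236) minus (tazemetostat minus control). Shares of 50-base transcript windows came from GENCODE M21. Named outside genes were taken from the 10 with the highest r to each list's mean, and a few genes of the other lists are not reported here. The members and lists were chosen with earlier results of these data known. The fit was tested on simulated data. Alternatives were another pseudocount, no filter, rescaling, a replicate block, plain variance, only the compared arms, and leaving out each library.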

Additional observations from a re-analysis of the deposited data

Results flagged for a closer look

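Of 140 groups of 4 tumours (each of the 33 tested members and both summed levels, in each arm), 2 had a tumour far from the other 3, and chance alone gives about 1 such group in 20. Cuzd1 was at 0.285 on the log2(FPKM + 1) scale in RMC-6236 tumour 3, the highest of its arm. Zg16 was at 2.85 in tazemetostat tumour 3, the highest of its arm.

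The effect of tazemetostat differed with and without RMC-6236 for 4 gene and system pairs, by limma's interaction. In tumours this was Cuzd1 (1.52, adjusted p = 0.0356), which passed the filter only through the 4 combination tumours. That call was lost with no filter, a pseudocount of 0.1, the replicate block, and in 11 of the 12 fits that left out a tumour of another arm. In cultured cells these were Sycn (1.15, adjusted p = 0.000183), Rnase1 (0.807, adjusted p = 0.00406) and Reg1 (0.699, adjusted p = 0.00887). Of these, Reg1 passed the filter only through the combination cells.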

How the results depend on the processing

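No member's difference that was called in the main fit or in an alternative changed direction between them. Changes of sign among differences called in neither fit were not counted. For combination against control, 26 acinar genes were called, with 22 to 26 when 1 tumour was left out. The islet count of 1 became 0 with a pseudocount of 0.1, no filter, a replicate block or only the compared arms, 3 with rescaled libraries or without trend and robust variance, and 0 to 7 with 1 tumour left out. For combination against RMC-6236 the acinar count of 22 became 2 with only the compared arms, 16 with the replicate block, and 10 to 25 with 1 tumour left out; the islet count of 0 ranged over 0 to 1. For combination against tazemetostat the islet count of 0 became 1 with rescaling or without trend and robust variance, and 0 to 7 with 1 tumour left out. The acinar interaction count of 1 became 0 with a pseudocount of 0.1, no filter or the replicate block, and 0 to 3 with 1 tumour left out. In cells the tazemetostat count of 2 became 4 with no filter and 1 to 2 with 1 library left out, and the combination count of 6 ranged over 4 to 6. Beyond fewer samples or a changed set of genes tested, the cause was not tested. Rescaling moved the share of higher calls for combination against RMC-6236 from 63.5% to 51.4%, and for combination against control from 51% to 46.5%.
Tumours of the same replicate number did not deviate together: r of their deviations was -0.404 to 0.344 over 24 pairs, over 0.1 in 4, and in cells -0.1 to 0.146 over 18 pairs, so the numbers were not read as pairs. Depth is unknown, and low FPKM cannot be given a counting error.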

Other observations

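Of the further islet genes, 4 were too low for the filter and followed the islet hormones in the combination arm. G6pc2, a glucose-6-phosphatase of beta cells, had 0.214, 1.08, 0.0242 and 3.30 FPKM in combination tumours and 0 to 0.130 in controls. Ucn3, urocortin 3, had 0.0952, 0.397, 0 and 1.09 FPKM in combination tumours and 0 in all controls. Nkx6-1, a beta cell transcription factor, had 0.184, 0.298, 0 and 0.960 FPKM in combination tumours and 0.0163 to 0.0813 in controls. Chgb, chromogranin B, had 0.272, 1.21, 0.0621 and 2.70 FPKM in combination tumours and 0 to 0.230 in controls. These 4 were chosen after their values were seen.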
